A study of Homo sapiens with 8 samples.

Results

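The genes described here encode the mitochondrial protein import machinery: the TOM and SAM complexes of the outer membrane, the chaperones and the oxidoreductase of the intermembrane space, the TIM complexes of the inner membrane and the motor on its matrix side. The list holds 32 symbols, chosen by name and not by a measured value, and each matched 1 Ensembl identifier among the 60651 genes of the deposited table. Ribosome footprints, the short mRNA pieces that translating ribosomes protect from nuclease, were sequenced from IMR32 cells, an established human neuroblastoma line with amplified MYCN, labelled WT. In 4 libraries the cells had been treated with CR31B, an analog of silvestrol that binds the RNA helicase eIF4A, and in 4 libraries with the solvent DMSO at 0.1%. Treatment lasted 6 h in both groups, all cells received cycloheximide before harvest, and the dose of CR31B is not given in the labels. The design text calls the 4 libraries of each group biological replicates of this single line, so differences between lines are outside what was measured.

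Most mitochondrial proteins are made on cytosolic ribosomes and have to cross or enter the mitochondrial membranes after synthesis. The TOM complex is the common entry gate, from which the SAM complex inserts barrel-shaped proteins into the outer membrane, the TIM22 complex inserts carriers into the inner membrane, and the TIM23 complex passes proteins with a presequence to the matrix, where an HSPA9-driven motor pulls them in. eIF4A unwinds mRNA leaders for the scanning ribosome, so mRNAs can differ in how far their footprints depend on it.

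Values are TPM, footprint abundance per transcript length scaled to a fixed sum per library, so a level is always relative to all other RNA in the library. Footprints alone do not separate the amount of an mRNA from the ribosomes on each copy, and TPM does not show a change that affects all mRNAs alike. In bulk libraries, fewer cells making an mRNA and less of it per cell cannot be told apart. From 17857 to 22270 genes were above 0 per library, and the protein-coding share of TPM was 51.8% to 61.3%, largest in CR31B replicate 1. TPM keeps no read totals, so the sequencing depth behind each value is unknown. Of the adrenergic neuroblastoma markers, HAND2 was at 250.4 to 319 TPM in CR31B and 160.0 to 195 TPM in DMSO libraries and MYCN at 595 to 1076 and 542 to 647 TPM, whereas TH, the enzyme that starts catecholamine synthesis, was at 0.350 to 1.19 TPM. The part of these marker differences in the results was not tested. The 8 immune, endothelial and epithelial markers summed to at most 0.290 TPM in any library. The 8 mesenchymal and fibroblast markers summed to 9.05 to 16.4 TPM under CR31B and 11.5 to 20.6 TPM in DMSO libraries, 5 of them were under 1 TPM in every library, and PRRX1 was listed at 0 throughout.

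All 32 import genes passed the filter on low values, and the highest mean was 139 times the lowest. Their median level over the 8 libraries was 65.97 TPM, against 9.096 TPM for the 11778 genes tested (those with a mean of at least 1 TPM), and 21 of the 32 lay above the upper quartile of tested genes, 28.4 TPM. TOMM6, a small subunit of the TOM channel, was highest at 568 TPM, followed by TOMM20, the presequence receptor, at 427 TPM and HSPA9, the matrix HSP70, at 296 TPM. At the low end stood CHCHD4, TIMM22, TIMM29, TOMM40L, TIMM8A, DNAJC19 and TOMM34, at 4.09 to 8.13 TPM, 7 genes in all under the tested median. Genes of a single complex could differ in level: in the TIM23 complex TIMM50 averaged 117 TPM and TIMM21 averaged 23.8 TPM.

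**Figure D1:**
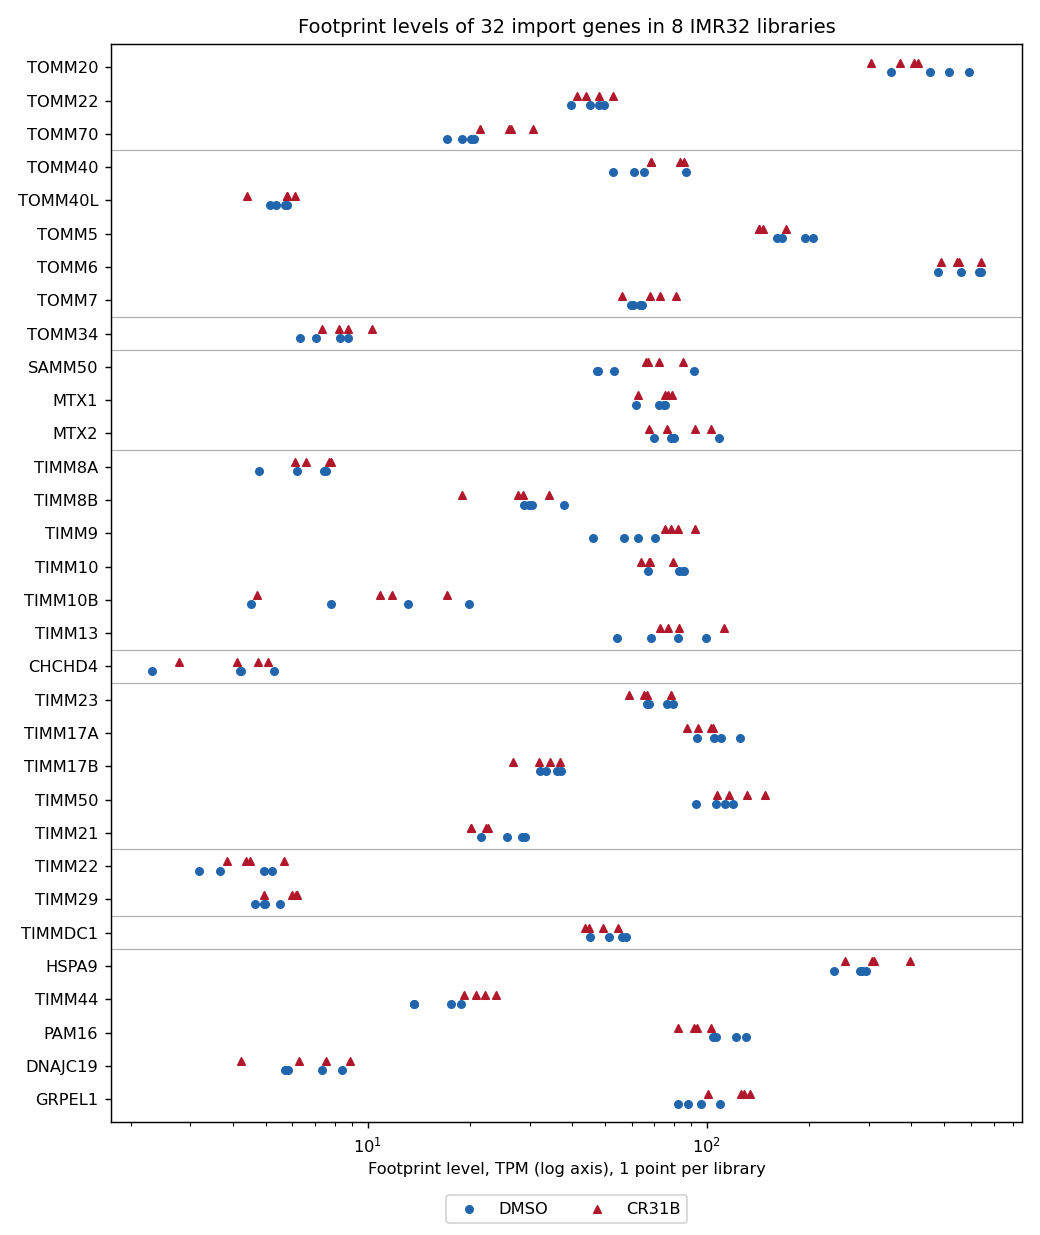
Footprint level (TPM, log axis) of the 32 import genes in each of the 4 CR31B (triangles) and 4 DMSO (circles) libraries, with lines between role groups. Levels run from about 4 TPM for CHCHD4 to 568 TPM for TOMM6, and for most genes the points of both groups overlap.

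The comparison asked whether footprints on the import genes differed after eIF4A inhibition. None of the 32 genes passed limma's test at an adjusted p under 0.05, where 7.46% of all tested genes passed, 3.45% higher and 4.02% lower in CR31B. At an unadjusted p under 0.05 there were 6 import genes, TOMM70, TIMM9, TIMM44 and GRPEL1 higher and PAM16 and TIMM21 lower in CR31B, which is 18.8% against 23.4% of tested genes. The groups did not overlap for 4 of the 32 (12.5%, against 16.2% of tested genes, 8.07% higher and 8.14% lower): TOMM70, TIMM9 and TIMM44 were higher and PAM16 was lower in every CR31B library. The median estimate (log2 fold change) was 0.038 for the import genes and 0.029 for all tested genes, with 19 of the 32 above 0 (59.4%, against 54.1% of tested genes). Estimates ran from -0.33 for TOMM20 to 0.48 for TIMM9, and the median absolute log2 fold change was 0.17, against 0.20 over all tested genes. All fold changes were computed from log2(TPM + 1), so those of low genes are understated.

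Libraries with the same replicate number deviated together for numbers 1 to 3, and less clearly for number 4. The fit was therefore repeated with the replicate number as a block. With the block, 3 of the 32 import genes passed, 9.38% against 12.3% of tested genes (5.77% higher and 6.56% lower), and all 3 were higher in CR31B: TOMM70, TIMM9 and GRPEL1, with adjusted p by limma of 0.0309, 0.0315 and 0.0311. At an unadjusted p under 0.05 there were 9 with the block, where 30% of tested genes were. GRPEL1 passed under this alternative alone, while TOMM70 passed in 5 and TIMM9 in 4 of 17 alternatives. The 95% interval of the log2 fold change lay within a 2-fold change either way for all 32 genes, as for 88.2% of tested genes, and within a 1.5-fold change for 23 of them (50.3% of tested genes). These shares are not matched for level, and the median level was 65.97 TPM for the import genes and 9.096 TPM for tested genes.

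**Figure D2:**
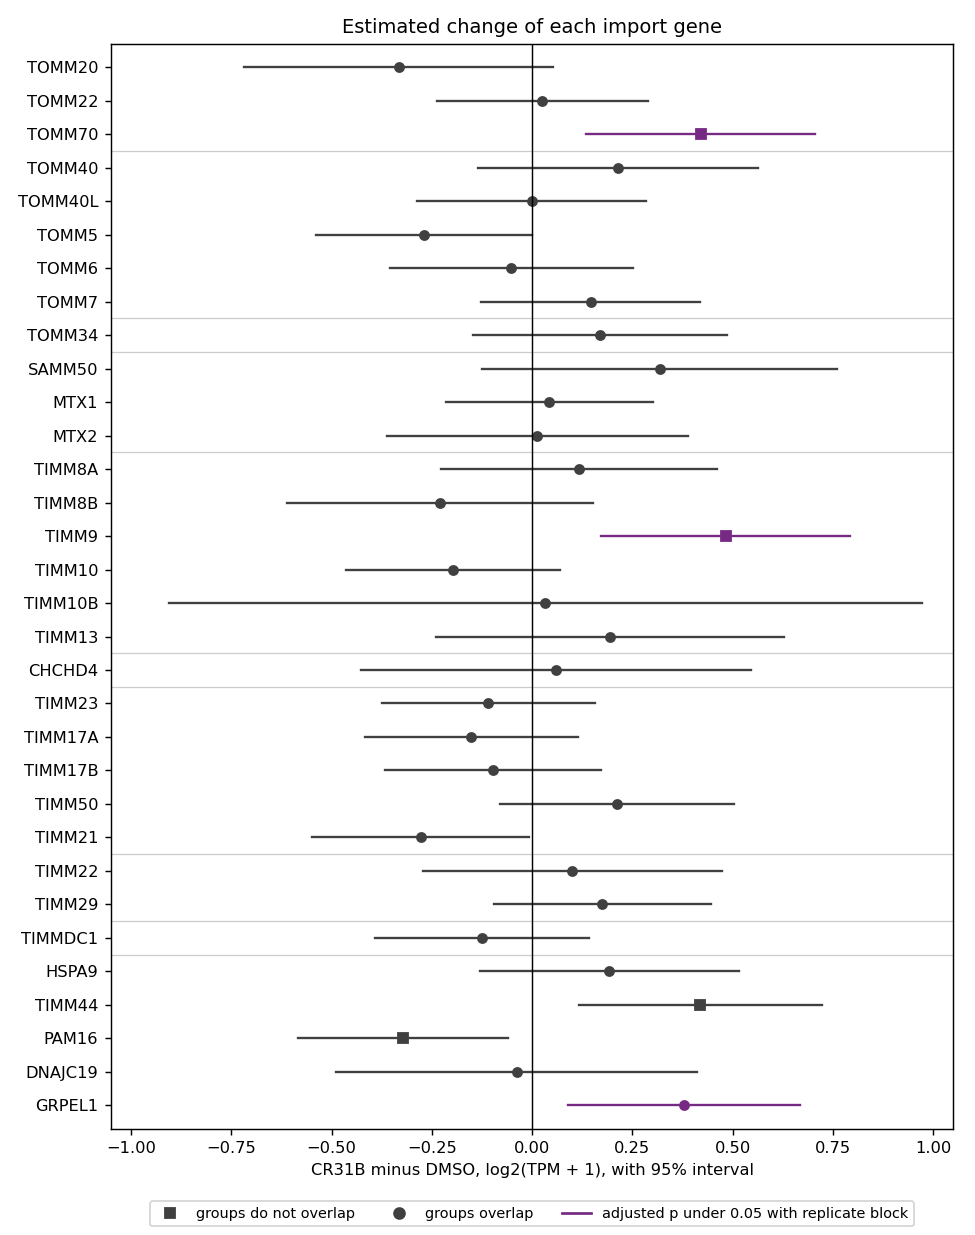
Estimated difference CR31B minus DMSO on the log2(TPM + 1) scale with its 95% interval for each import gene, in role groups. Squares mark the 4 genes whose groups do not overlap, and purple marks the 3 genes with an adjusted p under 0.05 in the fit with the replicate block.

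The summed level of the 32 genes did not separate the groups. It was 3119, 2521, 2747 and 2803 TPM in CR31B replicates 1 to 4 and 3046, 2802, 2577 and 2972 TPM across DMSO replicates 1 to 4. That is a share of 0.252% to 0.312% of all TPM, and the library with the highest sum, CR31B replicate 1, was also the one with the largest share of protein-coding RNA. The part of that share in the results was not tested as such. After rescaling over protein-coding genes 2 import genes passed (6.25%, against 11% of the genes tested there), TOMM70 and TIMM9 (adjusted p by limma of 0.0231 and 0.0119).

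The receptors of the TOM complex had estimates on both sides of 0. TOMM70 (ENSG00000154174.8), the receptor for carrier precursors and for chaperone-bound clients, was at 30.6, 21.4, 26.5 and 26.1 TPM across CR31B replicates 1 to 4, and at 20.6, 17.1, 18.9 and 20.2 TPM across DMSO replicates 1 to 4. Every CR31B library was above every DMSO library. The log2 fold change was 0.42 (SE 0.13, 95% interval 0.14 to 0.71, adjusted p by limma of 0.0755), and the adjusted p ran from 0.0231 to 0.188 over the alternatives. TOMM20 (ENSG00000173726.11), which binds presequences, was at 407, 304, 371 and 419.6 TPM under CR31B and at 594, 455, 349.8 and 516 TPM under DMSO. It was lower in CR31B in 3 of 4 replicate pairs, with groups that overlapped through DMSO replicate 3, and its log2 fold change was -0.33 (SE 0.17, adjusted p by limma of 0.283). TOMM22, the central receptor that holds the channel units together, was at 46.5 ± 4.97 TPM under CR31B and 45.7 ± 4.39 TPM under DMSO (SD, n = 4 each), with an interval from -0.24 to 0.29. Within each library the log2 ratio of TOMM70 to TOMM20 was -3.96 to -3.69 in CR31B and -4.79 to -4.14 in DMSO; this ratio was chosen after the values were seen and is given without a test.

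The 250 bases before the annotated start of these receptor genes are shown because these receptors sit in a single complex and their estimates lay on opposite sides of 0. Sequences are from RefSeq (GRCh38.p14), minus strand, 5′ to 3′, and capitals mark the E-box CACGTG, bound by MYC family proteins, and the ETS core CCGGAAG (or its reverse complement), recognised by GABP among other factors. TOMM70 lies at chr3:100401090-100401339 and TOMM20 at chr1:235128838-235129087.
TOMM70: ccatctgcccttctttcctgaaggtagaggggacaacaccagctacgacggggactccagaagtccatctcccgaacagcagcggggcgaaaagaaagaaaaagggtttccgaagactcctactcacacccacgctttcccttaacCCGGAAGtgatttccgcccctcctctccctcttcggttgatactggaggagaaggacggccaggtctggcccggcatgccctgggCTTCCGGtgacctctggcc
TOMM20: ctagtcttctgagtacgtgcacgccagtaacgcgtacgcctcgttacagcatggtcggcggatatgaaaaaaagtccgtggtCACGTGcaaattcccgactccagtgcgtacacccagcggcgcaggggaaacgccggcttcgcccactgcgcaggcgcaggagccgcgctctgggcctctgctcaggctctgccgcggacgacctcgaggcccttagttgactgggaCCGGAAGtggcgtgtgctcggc
TOMM70 holds the ETS core at 104 and 19 bases before the start, and TOMM20 holds it at 22 bases and the E-box at 168 bases before the start. Promoter windows were found for 29 of the 32 import genes; TOMM5, TIMM8B and GRPEL1 had none. Searched on both strands, the ETS core was in 9 of the 29 windows (31.0%), against 17.7% of 8746 windows of tested genes. The E-box was in 2 (6.90%, against 9.55%), HSPA9 and TOMM20. The palindromic NRF1 motif was in 1, CHCHD4, and TGATGNAAN, the response element of ATF4 with C/EBP partners, was in 1, TIMM22 (3.45% each, against 2.17% and 1.18%). No searched word overlapped another in these 2 windows, and a match describes letters only.

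**Figure D3:**
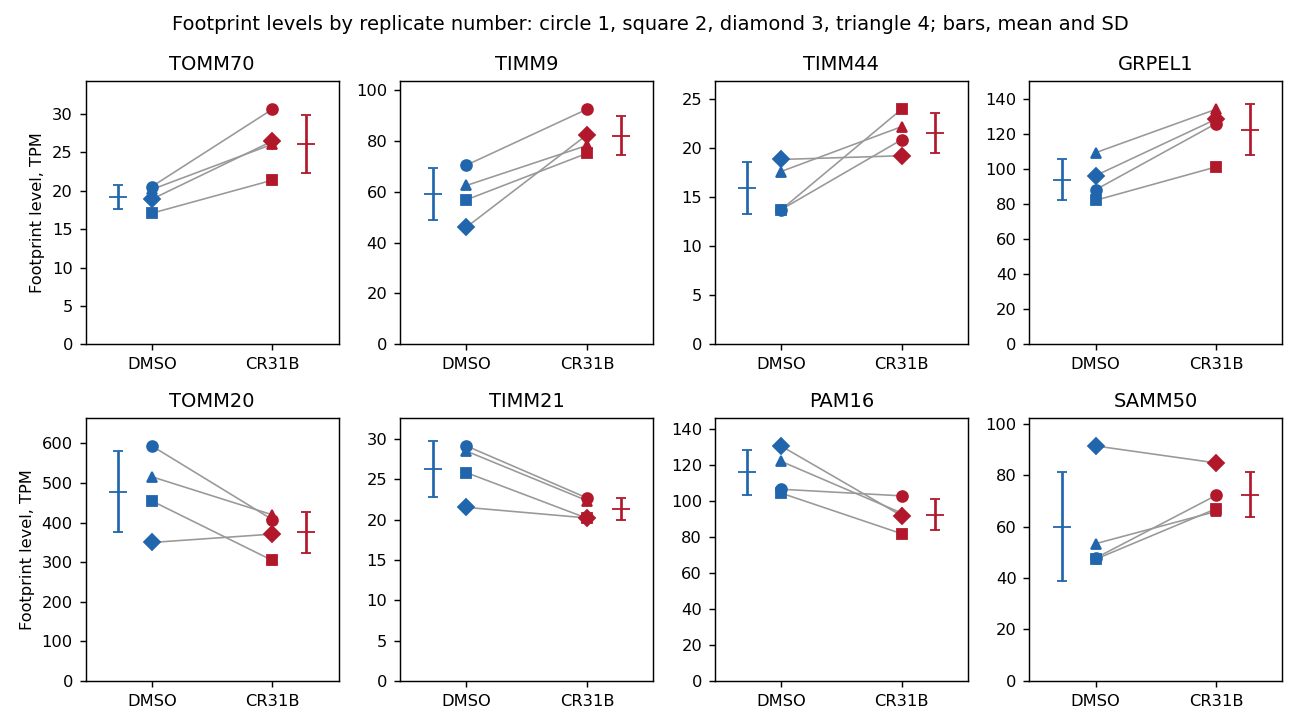
Footprint level (TPM) of 8 import genes in DMSO and CR31B, with a line joining libraries of the same replicate number and bars for the mean and SD of 4 libraries. TOMM70, TIMM9, TIMM44 and GRPEL1 are higher in CR31B in all 4 pairs, TIMM21 and PAM16 are lower in all 4, and DMSO replicate 3 is the lowest DMSO library for TOMM20 and the highest for SAMM50.

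No gene of the TOM channel and its small subunits passed the test, with 2 of 5 estimates above 0. TOMM40 (ENSG00000130204.13), the pore itself, was at 68.6, 68.5, 85.7 and 83.2 TPM under CR31B and at 61.1, 52.99, 86.97 and 65.2 TPM under DMSO. DMSO replicate 3 was the highest of the 8 libraries, and the log2 fold change of 0.21 (SE 0.16, adjusted p by limma of 0.458) was within the spread. Of the small subunits that stabilise the pore, TOMM5 was at 150.4 ± 13.6 TPM under CR31B and 182 ± 22.04 TPM under DMSO, lower in 4 of 4 pairs (log2 fold change -0.27, adjusted p by limma of 0.214). TOMM6 was at 558 ± 63.3 and 579 ± 75.7 TPM, and TOMM7 at 69.4 ± 10.4 and 62.1 ± 2.15 TPM, in CR31B and DMSO (SD, n = 4 each). TOMM40L, a paralog of the pore, was at 5.53 ± 0.754 and 5.500 ± 0.284 TPM. TOMM34 (ENSG00000025772.8), a cytosolic cochaperone of HSP70 and HSP90 named for its role with precursors, was at 8.24, 7.35, 10.3 and 8.78 TPM under CR31B and at 7.05, 8.73, 6.32 and 8.300 TPM under DMSO, with a log2 fold change of 0.17 (SE 0.14, adjusted p by limma of 0.523).

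In the SAM complex 1 library decided the call. SAMM50 (ENSG00000100347.15), the channel that inserts barrel proteins, was at 72.2, 66.97, 84.8 and 65.9 TPM under CR31B and at 47.8, 47.3, 91.4 and 53.4 TPM under DMSO. All CR31B libraries were above DMSO replicates 1, 2 and 4, while DMSO replicate 3 was the highest of all. With the 8 libraries the log2 fold change was 0.32 (SE 0.20, adjusted p by limma of 0.377), and without DMSO replicate 3 it was 0.54 (adjusted p by limma of 0.0373). MTX1 and MTX2, the metaxins on the cytosolic face of the complex, had estimates near 0. MTX1 was at 73.4 ± 7.26 TPM under CR31B and 71.2 ± 6.33 TPM under DMSO, and MTX2 at 84.8 ± 15.7 and 84.03 ± 16.8 TPM (SD, n = 4 each), with log2 fold changes of 0.043 and 0.013.

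The intermembrane space holds the small TIM proteins, which form ring-shaped chaperone hexamers (TIMM9 with TIMM10, TIMM8A with TIMM13) that carry hydrophobic precursors across the aqueous gap. TIMM9 had the highest estimate of all 32 genes and its partner TIMM10 had an estimate below 0. Their coding sequences are shown because each is short and carries the signature of the family, 2 pairs of cysteines with 3 residues between them, which CHCHD4 oxidises. They are GENCODE 29 transcripts on GRCh38, minus strand, 5′ to 3′, and capitals mark the codons of those 4 cysteines. The coding exons of TIMM9 lie within chr14:58409034-58411945 and those of TIMM10 within chr11:57528717-57530189.
TIMM9: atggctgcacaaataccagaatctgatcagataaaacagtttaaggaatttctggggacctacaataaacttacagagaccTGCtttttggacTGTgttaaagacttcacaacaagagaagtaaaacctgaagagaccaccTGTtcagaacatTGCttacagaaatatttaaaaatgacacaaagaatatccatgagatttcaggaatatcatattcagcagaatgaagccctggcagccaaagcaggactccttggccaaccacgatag
TIMM10: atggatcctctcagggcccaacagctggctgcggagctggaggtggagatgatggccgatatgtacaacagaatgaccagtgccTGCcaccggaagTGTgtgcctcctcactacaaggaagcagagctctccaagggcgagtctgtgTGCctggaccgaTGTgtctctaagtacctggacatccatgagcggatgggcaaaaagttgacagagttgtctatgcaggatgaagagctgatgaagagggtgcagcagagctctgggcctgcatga
The paired cysteines are codons 28, 32, 48 and 52 of 89 in TIMM9 and codons 29, 33, 50 and 54 of 90 in TIMM10. All 6 small TIM genes held 4 such codons. Aligned end to end, the coding sequences of TIMM9 and TIMM10 were identical at 48.9% of columns.

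TIMM9 (ENSG00000100575.14) was at 92.5, 75.1, 82.4 and 78.2 TPM under CR31B and at 70.5, 56.9, 46.1 and 62.5 TPM under DMSO. Every CR31B library was above every DMSO library. The log2 fold change was 0.48 (SE 0.14, 95% interval 0.17 to 0.79, adjusted p by limma of 0.0635), and the adjusted p ran from 0.0119 to 0.154 over the alternatives. TIMM10 (ENSG00000134809.9) was at 67.5, 79.2, 63.9 and 67.98 TPM under CR31B and at 82.7, 85.1, 67.1 and 85.6 TPM under DMSO. It was lower in CR31B in 4 of 4 pairs while the groups overlapped, with a log2 fold change of -0.20 (SE 0.12, adjusted p by limma of 0.360). The log2 ratio of TIMM9 to TIMM10 within a library was -0.57 to -0.23 in DMSO and -0.076 to 0.45 in CR31B, without overlap, a ratio chosen after the values were seen and therefore given as a description.

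The other small TIM genes varied more between libraries than between groups. TIMM13 was at 86.2 ± 18.1 TPM under CR31B and 75.96 ± 19.1 TPM under DMSO, higher in CR31B in 4 of 4 pairs (log2 fold change 0.19, adjusted p by limma of 0.605). Its exons overlap LMNB2 on the same strand. TIMM10B, part of the TIM22 complex, had the widest spread of the 32 genes, from 4.71 to 17.2 TPM under CR31B and from 4.54 to 19.9 TPM under DMSO. TIMM8A, mutated in a deafness-dystonia syndrome, was at 7.05 ± 0.842 and 6.48 ± 1.28 TPM (SD, n = 4 each). The processed copy TIMM8AP1 was listed at 31.1 ± 4.73 TPM under CR31B and 24.2 ± 2.62 TPM under DMSO, above TIMM8A itself, so how reads were divided between them makes the TIMM8A level uncertain. TIMM8B was at 27.4 ± 6.302 and 31.8 ± 4.15 TPM, and its exons overlap SDHD on the opposite strand. CHCHD4 (ENSG00000163528.13), the oxidoreductase of the disulfide relay, was at 5.07, 4.74, 2.77 and 4.11 TPM under CR31B and at 4.24, 5.28, 2.32 and 4.21 TPM under DMSO, lowest in replicate 3 of both groups. Its processed copy CHCHD4P4 was listed at 0.193 ± 0.385 TPM under CR31B and 1.85 ± 1.14 TPM under DMSO. The log2 fold change of CHCHD4 itself was 0.060 (SE 0.22), which does not exclude changes of the size seen for TIMM9.

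In the TIM23 complex, the presequence translocase, 4 of 5 genes had estimates below 0 and none passed. TIMM23 (ENSG00000265354.4), its channel-forming subunit, was at 78.6, 65.4, 58.8 and 66.5 TPM under CR31B and at 76.5, 67.6, 66.4 and 79.5 TPM under DMSO (log2 fold change -0.11, SE 0.12, adjusted p by limma of 0.642). The coding sequence of TIMM23B, a near copy at 5.62 ± 0.677 TPM under CR31B and 5.32 ± 0.961 TPM under DMSO, was identical at 86.7% of aligned columns, so the division of reads between them is uncertain. TIMM17A (ENSG00000134375.11), a partner of TIMM23 whose protein is known to be lost when translation is attenuated under stress, was at 105, 103, 87.2 and 94.3 TPM under CR31B and at 110.1, 105, 93.6 and 125 TPM under DMSO. It was lower in CR31B in 4 of 4 pairs, but the groups overlapped and the log2 fold change of -0.15 (SE 0.12, 95% interval -0.42 to 0.11, adjusted p by limma of 0.489) did not pass. TIMM17B (ENSG00000126768.12), its paralog, was at 36.9, 26.9, 32.02 and 34.4 TPM under CR31B and at 36.04, 32.1, 33.5 and 37.2 TPM under DMSO, with a log2 fold change of -0.097 (SE 0.12, adjusted p by limma of 0.683). Its exons overlap the more abundant PQBP1 on the opposite strand, and whether reads were counted by strand is not given in the sources used here.

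TIMM50, the receptor of the complex in the intermembrane space, was at 148, 107, 116 and 131 TPM under CR31B and at 113, 106, 92.7 and 119 TPM under DMSO, higher in CR31B in 4 of 4 pairs (log2 fold change 0.21, SE 0.13, adjusted p by limma of 0.370). TIMM21 (ENSG00000075336.12), which links TIM23 to the TOM complex and to the respiratory chain, was at 22.7, 20.2, 20.2 and 22.4 TPM under CR31B and at 29.1, 25.8, 21.5 and 28.5 TPM under DMSO. It was lower in 4 of 4 pairs, with overlap only through DMSO replicate 3, and its log2 fold change was -0.28 (SE 0.12, 95% interval -0.55 to -0.0068, adjusted p by limma of 0.204). TIMM50 and TIMM21 thus lay on opposite sides of 0 within a single complex, neither beyond the threshold.

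In the TIM22 complex, and for the related TIMMDC1, no gene passed the test. TIMM29 (ENSG00000142444.7), a subunit that ties TIM22 to the TOM complex, was at 6.17, 4.96, 6.16 and 5.99 TPM under CR31B and at 5.52, 4.66, 4.95 and 4.99 TPM under DMSO, higher in 4 of 4 pairs (log2 fold change 0.18, SE 0.12, adjusted p by limma of 0.429). TIMM22, the carrier translocase, was at 4.598 ± 0.7598 and 4.26 ± 0.984 TPM (SD, n = 4 each). TIMMDC1 (ENSG00000113845.10), a family member that acts in complex I assembly rather than in import, was at 54.7, 44.9, 43.7 and 49.5 TPM under CR31B and at 57.8, 56.3, 45.3 and 51.3 TPM under DMSO, lower in 4 of 4 pairs (log2 fold change -0.13, SE 0.12, adjusted p by limma of 0.585).

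The 5 genes of the import motor had estimates on both sides of 0, 3 above and 2 below. HSPA9 (ENSG00000113013.16), the ATP-driven chaperone at its centre, was at 396, 255, 312 and 306 TPM under CR31B and at 295, 237, 283 and 286 TPM under DMSO. It was higher in 4 of 4 pairs, mostly in replicate 1, and the log2 fold change of 0.19 (SE 0.15, 95% interval -0.13 to 0.52, adjusted p by limma of 0.469) was within the spread between libraries. TIMM44 (ENSG00000104980.8), which anchors HSPA9 at the channel exit, was at 20.8, 23.95, 19.2 and 22.2 TPM under CR31B and at 13.7, 13.7, 18.8 and 17.6 TPM under DMSO. Every CR31B library was above every DMSO library, by a narrow margin against DMSO replicate 3. Its log2 fold change was 0.42 (SE 0.14, 95% interval 0.12 to 0.72, adjusted p by limma of 0.0926, and 0.0876 with the block). GRPEL1 (ENSG00000109519.13), the nucleotide exchange factor of HSPA9, was at 126, 101, 128 and 134 TPM under CR31B and at 88.1, 82.04, 96.1 and 109 TPM under DMSO. Only CR31B replicate 2 fell into the DMSO range, and the log2 fold change was 0.38 (SE 0.13, 95% interval 0.089 to 0.67, adjusted p by limma of 0.112, and 0.0311 with the block).

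PAM16 and DNAJC19 regulate the ATPase of HSPA9 as a J-like and a J-domain protein. PAM16 (ENSG00000217930.8) was at 103, 81.9, 91.9 and 93.4 TPM under CR31B and at 107, 105, 131 and 122 TPM under DMSO. Every CR31B library was below every DMSO library, and the log2 fold change was -0.32 (SE 0.12, 95% interval -0.58 to -0.060, adjusted p by limma of 0.133, and 0.0786 with the block). The readthrough gene CORO7-PAM16 shares its exons and was at 1.82 ± 1.16 TPM under CR31B and 1.595 ± 1.18 TPM under DMSO. DNAJC19 was at 6.74 ± 1.98 and 6.82 ± 1.29 TPM (SD, n = 4 each), with an interval from -0.49 to 0.41.

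Related genes were also compared with each other inside each library, which largely removes the scaling of the library. The ratios used log2(TPM + 1), so for low genes the scaling is not fully removed. For 5 pairs the log2 ratio was tested with an exact permutation of the treatment labels, two-sided, with 70 assignments, a smallest possible p of 0.0286 and adjustment over the 5 pairs. TIMM8A over TIMM8B had the largest difference, 0.35, with ratios of -1.80 ± 0.30 in CR31B and -2.14 ± 0.20 in DMSO (SD of 4 libraries; exact permutation p of 0.114, adjusted 0.571). Their copies TIMM8AP1 and TIMM8BP2 were listed at 27.66 and 6.886 TPM over the 8 libraries, so the division of reads makes this ratio uncertain. TOMM40 over TOMM40L differed by 0.21 (exact permutation p of 0.257, adjusted 0.643). TIMM17A over TIMM17B was 1.56 ± 0.23 in CR31B and 1.61 ± 0.12 in DMSO, a difference of -0.054 (exact permutation p of 0.743, adjusted 0.886). MTX1 over MTX2 and GRPEL1 over GRPEL2, its less abundant paralog, differed by 0.029 and -0.035 (exact permutation p of 0.886 and 0.8286, adjusted 0.886 each). A single pair could not pass after this adjustment even at the smallest p, and the groups overlapped for each of the 5 ratios. A ratio near 0 change can hold 2 genes with like estimates. GRPEL2 itself was at 22.9 ± 1.905 TPM under CR31B and 17.01 ± 1.92 TPM under DMSO, with no overlap. Its log2 fold change was 0.41 (adjusted p by limma of 0.0611), a value given after it was seen.

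**Figure D4:**
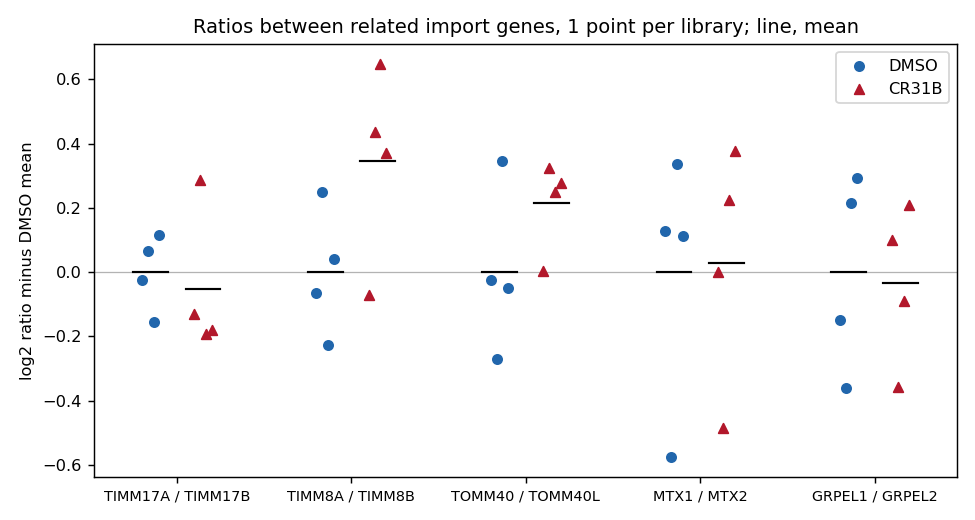
Log2 ratio of 5 pairs of related genes in each library, drawn relative to the DMSO mean of the pair, with horizontal lines for the group means. The groups overlap for every pair, and the largest difference, 0.35 for TIMM8A over TIMM8B, comes with 1 CR31B library inside the DMSO range.

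Sequence features that the choice of genes did not use were taken from 1 annotated GENCODE 29 transcript per gene. Import genes had short coding sequences, with a median of 552 nt and a range from 156 to 2040 nt, against 1389 nt for 10084 tested genes. Their annotated 5′ leaders had a median of 161 nt (5 to 532 nt), against 206 nt, a median GC content of 63.8%, against 66.5%, and a longest purine run of 7 nt at the median, against 8 nt. Rocaglates are known to clamp eIF4A onto purine-rich RNA, and the word AGAGAG, searched on the sense strand, was in the leader of 0 of the 32 import genes and of 10.6% of tested genes. TOMM70 and TOMM34 had the longest purine runs, 18 nt each. These are annotated leaders, and the starts used in IMR32 cells were not analysed here.

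The start codons of the 8 import genes with estimates furthest from 0 are shown with 12 bases before and 3 after them, because initiation is the step at which eIF4A acts. Capitals mark the start codon, and sequences are GENCODE 29 transcripts on GRCh38, 5′ to 3′.
TOMM70: aggacacttgtcATGgcc
TIMM9: taccagaagaatATGgct
TIMM44: cgattctccaacATGgcg
GRPEL1: gcagtggcagtcATGgcg
SAMM50: ggagagggaaccATGggg
TOMM20: gttgtagagaagATGgtg
PAM16: agagcggctgccATGgcc
TIMM21: ttttccgtgaacATGatt
Of 31 import genes with a leader long enough, 29 had A or G at the third base before the start codon and 25 had G right after it, the strong positions of the Kozak context. Among the 8 shown, TIMM21 was the only gene without the G.

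Across the 32 genes, longer coding sequences went with higher log2 fold changes (Pearson r of 0.420, Spearman rho of 0.410 over 32 genes). For the 16 genes with coding sequences of up to 519 nt the median log2 fold change was -0.045 (7 above 0), and for the 16 of 585 nt or more it was 0.17 (12 above 0). The same correlation over 10256 tested genes was 0.073 (Spearman rho 0.087). For leader length among the import genes, r was 0.268. These values describe genes measured in the same 8 libraries, which share depth and scaling, and the cause of these correlations was not tested.

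Outside the 32 genes, 37 further genes of the pathway were listed: other translocase genes, processing proteases, the MICOS complex with insertases, and matrix chaperones with proteases. Of the 35 tested, 1 rose and 1 fell at an adjusted p under 0.05 (5.71%, against 7.46% of all tested genes), and their median log2 fold change was 0.068. With the replicate block 3 passed (8.57%, against 12.3%). HSPE1 (ENSG00000115541.11), the lid of the matrix chaperonin that folds imported proteins, fell: it was at 459, 460.1, 394 and 359 TPM under CR31B and at 663, 764, 668 and 723 TPM under DMSO. No library of either group reached the other, and the log2 fold change was -0.76 (SE 0.12, adjusted p by limma of 0.00626), with an adjusted p under 0.05 in all 17 alternatives. HSPD1, the barrel of the same chaperonin, was at 261 ± 47.7 TPM under CR31B and 251 ± 24.5 TPM under DMSO (SD, n = 4 each; log2 fold change 0.040, adjusted p by limma of 0.904). The log2 ratio of HSPD1 to HSPE1 was -1.79 to -1.37 in DMSO and -0.88 to -0.53 in CR31B, again a ratio chosen after the values were seen. HSPE1 can share reads with copies: HSPE1P2 was listed at 9.73 ± 14.7 TPM under CR31B and 156 ± 111 TPM under DMSO, and the readthrough gene HSPE1-MOB4 at 62.4 ± 10.6 and 64.7 ± 5.84 TPM, so the size of the HSPE1 fall is uncertain.

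DNAJA3 (ENSG00000103423.14), a J-domain partner of HSPA9 in the matrix, rose: it was at 17.1, 18.4, 23.1 and 20.01 TPM under CR31B and at 14.1, 11.4, 11.6 and 15.8 TPM under DMSO, with no overlap. Its log2 fold change was 0.54 (SE 0.14, adjusted p by limma of 0.0457), and the call held in 8 of 17 alternatives. It was lost with every gene above 0 tested (0.114), without the trend (0.0550) and without any of 7 single libraries, all but CR31B replicate 1, with adjusted p from 0.0537 without DMSO replicate 4 to 0.121 without DMSO replicate 2. GFER, which reoxidises CHCHD4, was at 23.4 ± 2.02 TPM under CR31B and 17.1 ± 2.15 TPM under DMSO, with no overlap (log2 fold change 0.44, adjusted p by limma of 0.0570, and 0.0465 with the block). LONP1, the matrix protease, was at 51.9 ± 12.3 and 37.1 ± 2.06 TPM (log2 fold change 0.44, adjusted p by limma of 0.131). Its exons overlap the far more abundant RPL36 on the opposite strand. Whether reads were counted by strand is not given in the sources used here, so the LONP1 level and its difference are uncertain. IMMP2L, a processing protease, and APOO, of the MICOS complex, had estimates below 0. Their log2 fold changes were -0.42 and -0.37 (adjusted p by limma of 0.137 and 0.155). GFER, LONP1, IMMP2L and APOO were named after their values were seen. Groups did not overlap for 5 higher and 1 lower of the 35 related genes tested. Over all tested genes the shares were 8.07% higher and 8.14% lower.

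**Figure D5:**
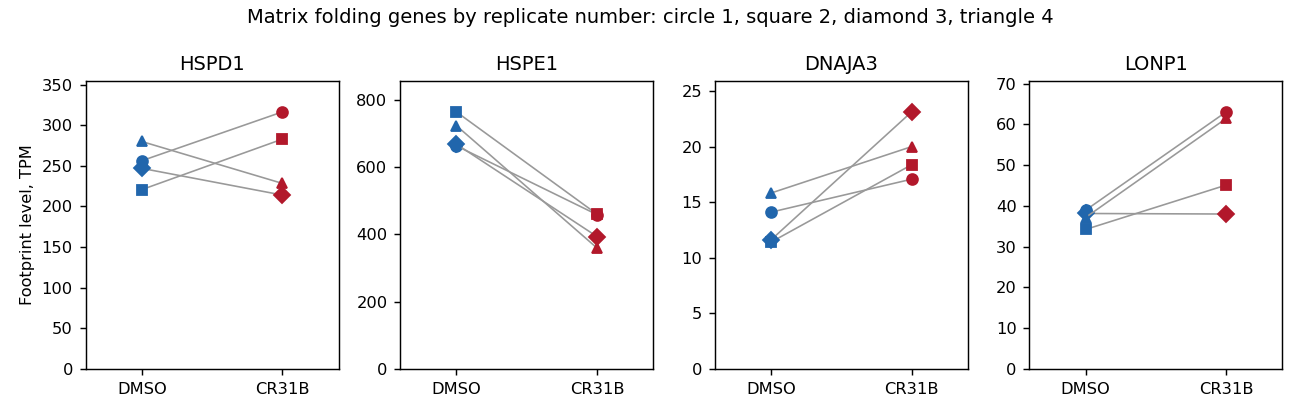
Footprint level (TPM) of 4 genes that act on imported proteins in the matrix, in DMSO and CR31B, with a line joining libraries of the same replicate number. HSPE1 is lower in CR31B in all 4 pairs and DNAJA3 is higher in all 4, while HSPD1 overlaps between groups and CR31B replicate 3 of LONP1 lies within the DMSO range.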

How the data were processed

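Ribosome footprints of 8 IMR32 libraries were measured, 4 per group. RNase I was used for digestion, per the labels' protocols, fragments of 28 to 30 nt were cut from a gel, and libraries were read as 76 bp single reads. The authors deposited TPM for 60651 genes, 1 column per library. The submitters' processing notes name cutadapt 3.2, Bowtie2 2.3.4.1, STAR 2.7.1a, RSEM 1.2.28, DESeq2 1.32.0 and GRCh38, with no role or order. The strand setting is not given in the sources used here. All 8 columns were matched by the libraries' descriptions.

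Each gene with a mean of at least 1 TPM (11778 genes) was fitted as log2(TPM + 1) with limma 3.58.1 in R 4.3.3 (eBayes with trend, treatment as the only term), with Benjamini-Hochberg adjustment over all tested genes. The fit was also run on simulated libraries, drawn independently of each other, with changes of 2-fold or more. That simulation does not cover deviations shared by replicate number or changes as small as the estimates of the import genes. Transcript features used GENCODE 29 and promoters RefSeq.

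Same-numbered libraries of the 2 groups deviated together across genes for numbers 1 to 3 (correlations of 0.301 to 0.333, against -0.206 to 0.134 for different numbers). For number 4 the correlation was 0.105, below the 0.134 of CR31B replicate 4 with DMSO replicate 1. A fit with the replicate number as a block is given beside results it changes. What a replicate number marks is not given in the labels.

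The members and lists were chosen with earlier results of these data known. By rule, values in every library were given for members that passed, for HSPA9, TOMM20, TOMM40, TIMM23, TIMM17A, TIMM17B, SAMM50 and TIMM9, and for the member of each remaining role group with the largest estimate. TOMM70, TIMM10, TIMM44, GRPEL1, PAM16, TIMM50 and TIMM21 were added after their values were seen. Alternatives covered the pseudocount, the filter, the scaling, the trend, the block and leaving out each library. One marker gene is not reported here.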

Additional observations from a re-analysis of the deposited data

Results flagged for a closer look

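Among 74 groups of 4 libraries (the 32 import genes and 5 ratios in each treatment), 4 held a library far from the other 3, and 3.7 would be expected by chance. For TOMM5 this was CR31B replicate 2 with 170.7 TPM, where its 3 companions had 142 to 146 TPM. For TIMM10 it was DMSO replicate 3 with 67.1 TPM, where the others had 82.7 to 85.6 TPM. For TIMM29 it was CR31B replicate 2 with 4.96 TPM, where the others had 5.99 to 6.17 TPM. The log2 ratio of TIMM17A to TIMM17B was 1.90 in CR31B replicate 2, where the others had 1.42 to 1.48.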

How the results depend on the processing

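The count of 879 genes that passed (7.46% of those tested) was 442 with every gene above 0 tested (1.55%) and 1453 with the replicate block (12.3%), and it ran from 404 to 785 without single libraries. The count of import genes that passed, 0, was 1 with a mean of at least 10 TPM (TIMM9, 4% of the 25 import genes tested, against 11.4% of all), 2 with quantile normalization (TOMM70 and TIMM9, 6.25% against 9.97%), 1 after centring on the median of tested genes (TOMM70, 3.12% against 9.99%), 2 over protein-coding genes (6.25% against 11%), 3 with the replicate block (9.38% against 12.3%), and 0 to 1 without single libraries (TOMM70 without CR31B replicate 2, at an adjusted p of 0.0414 in limma, and SAMM50 without DMSO replicate 3; 3.12% each, against 6.28% and 6.68%). The 2 related genes that passed became 4 of 28 with a mean of at least 10 TPM (14.3%) and 5 of 36 over protein-coding genes (13.9%), and 1 with every gene above 0 tested, without the trend and without 6 of the single libraries. The median of the import genes, 0.038, turned to -0.0062 after centring, and it ran from -0.024, without CR31B replicate 1, to 0.071. Differences in the ratio of MTX1 to MTX2 ran from -0.16 to 0.20 without single libraries, and of GRPEL1 to GRPEL2 from -0.15 to 0.073, with 0.019 at a pseudocount of 5 and 0.021 after quantile normalization. Small single-gene estimates changed sign. After centring, TOMM22 was at -0.019, MTX1 at -0.0015, MTX2 at -0.031 and TIMM10B at -0.011; after quantile normalization TOMM6 was at 0.039 and TIMM10B at -0.019; TOMM40L was at 0.0009 with a pseudocount of 5 and at 0.029 over protein-coding genes. Without single libraries the estimates ran from -0.039 to 0.078 for TOMM22, -0.046 to 0.085 for TOMM40L, -0.14 to 0.0086 for TOMM6, -0.022 to 0.12 for MTX1, -0.085 to 0.14 for MTX2, -0.0007 to 0.19 for TIMM8A, -0.29 to 0.36 for TIMM10B, -0.13 to 0.20 for CHCHD4, -0.0035 to 0.19 for TIMM22 and -0.17 to 0.14 for DNAJC19. The causes were not tested. No paired permutation test of the ratios could pass with 4 pairs. TPM gives no depth, so counting error could not be separated from the spread between libraries.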
